A study of Mus musculus with 8 samples.

Results

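The genes described here encode the proteins of the cytoplasmic ribosome. They were taken from the deposited expression matrix by symbol: every gene named Rpl or Rps with a number, plus Rplp0, Rplp1, Rplp2 and Rpsa, leaving out 9 pseudogene symbols ending in -ps and 10 kinases of the Rps6k families. This gave 86 of the 15653 genes in the matrix. Of these, 46 encode standard proteins of the large subunit, 31 encode standard proteins of the small subunit and 8 are paralogs of such proteins. The remaining match, Rps19bp1, is a binding partner of Rps19 and not itself a ribosomal protein. The cells were thymocytes that carry neither CD4 nor CD8, profiled by single-cell RNA sequencing from the 5′ end of each transcript. They came from GSK3B Ser389Ala knock-in (KI) mice, which carry alanine in place of a serine of the kinase GSK3β, and from C57BL/6J wild-type (WT) mice. In both genotypes, cells bound by antibodies to MHC class II, CD11b, CD4, CD8 or the kappa light chain were first taken out with magnets. The rest were sorted into DN4 cells (CD44-, CD25-), the stage after rearrangement of the T cell receptor β chain, and DN3 cells (CD44-, CD25+), the stage of that rearrangement. The 4 groups were KI DN4, WT DN4, KI DN3 and WT DN3, with 1 expression library each, and the number of mice behind a library was not given in the sources used here.

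Ribosomal proteins coat and shape the ribosomal RNA, and nearly all are needed in equal amounts in every ribosome. Their mRNAs are known as TOP mRNAs, because they begin with a C at the start of an unbroken run of pyrimidines, through which the growth kinase mTOR and the RNA-binding protein LARP1 set their translation. Thymocytes that have passed selection for a working β chain grow and divide fast, and in mice the loss of Rpl22 blocks the αβ lineage near this step.

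The run of pyrimidines was looked for around the annotated transcription start of each gene in the RefSeq promoter sequences (GRCm38.p6), on the strand of the gene only. A run was taken as at least 5 letters, each C or T, overlapping the stretch from 5 bases before to 5 bases after the start. Of 63 members measured and matched by symbol, 34 had such a run (54.0%). The share was 32.9% among 4757 other measured genes and 32.9% among all 27025 promoters. The windows below hold 30 bases, 10 before the annotated start and 20 from it on, with the run in capitals. They are shown because the results turn on these members: 4 that lay in opposite directions in the 2 stages, 2 of them with a run (Rpl38 and Rps7) and 2 with none and so without capitals (Rps28 and Rpl36al), 1 lower in KI DN3 (Rpl35), 1 lower in KI DN4 (Rpl13a), 1 that followed the clusters (Rps24) and the near-identical pair Rps27rt and Rps27.
Rpl38, chr11:114668570-114668599, plus strand: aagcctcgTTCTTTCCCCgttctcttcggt
Rps7, chr12:28635934-28635963, minus strand: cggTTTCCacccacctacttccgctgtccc
Rps28, chr17:33824543-33824572, minus strand: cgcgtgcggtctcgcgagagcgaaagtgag
Rpl36al, chr12:69184048-69184077, minus strand: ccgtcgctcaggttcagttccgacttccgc
Rpl35, chr2:39005112-39005141, minus strand: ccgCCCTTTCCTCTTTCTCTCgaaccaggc
Rpl13a, chr7:45128726-45128755, minus strand: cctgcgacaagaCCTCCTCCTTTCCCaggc
Rps24, chr14:24490668-24490697, plus strand: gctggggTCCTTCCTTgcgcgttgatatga
Rps27rt, chr9:114982720-114982749, minus strand: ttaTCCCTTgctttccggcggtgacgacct
Rps27, chr3:90213629-90213658, minus strand: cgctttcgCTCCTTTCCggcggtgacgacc
The windows of Rps27rt, a retrotransposed copy, and of Rps27 share a run of 19 bases. Reads from their 5′ ends may be hard to assign, which was not tested. The run was looked for at annotated starts and no first C was required, so having a run is not the same as being a TOP mRNA. Members with and without a run had alike medians between genotypes. For KI over WT in DN4 the median log2 ratio was 0.06 for the 34 members with a run and 0.07 for the 29 without. In DN3 it was −0.03 with a run and 0.04 without.

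The libraries held 2577 KI DN4, 1477 WT DN4, 3298 KI DN3 and 2885 WT DN3 cells, with 16411164 to 30402236 unique molecular identifiers (UMIs) per library. Median UMIs per cell were 9345 in KI DN4, 7121 in WT DN4, 5495 in KI DN3 and 5927 in WT DN3. UMIs were summed over the cells of a library and scaled to the library's total as CPM. With 1 library per group there is no test, genotype or stage and library cannot be told apart, and the 95% intervals given cover counting error only. Between 3 and 17 cell barcodes were shared by any pair of libraries. The CD25 gene Il2ra was at 3.75 CPM in KI DN4 and 3.84 in WT DN4, against 425 in KI DN3 and 478 in WT DN3. The altered gene, Gsk3b, was at 74.2 CPM in KI DN4 against 93.8 in WT DN4, and at 90.6 in KI DN3 against 107 in WT DN3, and a replaced codon is not expected to show in such a count. Other lineages were not absent. Markers of γδ T cells (9 of 10 genes in the matrix) summed to 494 CPM in KI DN4 and 710 in WT DN4, and to 717 in KI DN3 and 908 in WT DN3. Trdc, Tcrg-C1 and Tcrg-C2 made up most of the DN3 sums and were higher in DN3 than in DN4 in both genotypes. The other measured genes of this list were higher in DN4. Sox13, for 1, was at 24.3 CPM in KI DN4 and 42.8 in WT DN4, against 6.50 in KI DN3 and 6.75 in WT DN3. Markers of NK and related cells (8 of 9 genes) summed to 163 CPM in KI DN4 and 253 in WT DN4, and to 103 in KI DN3 and 136 in WT DN3, where Nkg7 made up nearly all of it and Klrb1c and Ccl5 were at 0. Cycling markers (10 of 10 genes) summed to 1744 CPM in KI DN4 and 1334 in WT DN4, and to 1019 in KI DN3 and 676 in WT DN3. Of 6 erythroid markers 1 was in the matrix, at 0 in every library but KI DN4 (0.0987 CPM).

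The members together took up nearly the same part of all transcripts in every group. They made up 28.1% of UMIs in KI DN4, 26.7% in WT DN4, 26.8% in KI DN3 and 26.8% in WT DN3. The log2 ratio of this share for KI over WT was 0.08 in DN4 and 0.003 in DN3. For DN4 over DN3 it was 0.07 in KI and −0.01 in WT. Per cell, the median share was 27.7% in KI DN4, 25.8% in WT DN4, 26.8% in KI DN3 and 26.4% in WT DN3. The quartiles over cells were 24.3 and 29.8% in KI DN4 and 22.6 and 28.2% in WT DN4, so single cells of the genotypes overlapped widely.

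Under this steady total, single members lay up to about 2-fold apart between KI and WT cells, and in opposite directions in the 2 stages. Of the 86 members, 83 reached 20 CPM in at least 1 library and were compared. A gene was called higher or lower past a log2 ratio of 0.32 in size, a ratio of 5 to 4 between libraries. In DN4, 10 of the 83 were higher in KI (4.38% of all 5592 genes were) and 9 were lower (15.3% of all genes). Scaled by TMM factors instead of library totals, 14 were higher (11.4% of all genes) and 8 lower (8.35%). None was 2-fold apart in DN4, where 0.0715% of all genes were 2-fold higher and 0.59% 2-fold lower. In DN3, 3 were higher in KI (4.57% of all 5797 genes) and 15 lower (7.75% of all genes), and among cells with 4000 to 8000 UMIs 7 were higher (5.12%) and 14 lower (9.81%). Past 2-fold in DN3 were 1 member higher (0.138% of all genes) and 2 lower (0.552%). The median log2 ratio of the members was 0.06 in DN4 and 0.04 in DN3, beside −0.05 and 0.003 for all genes in the same comparisons. Large-subunit and small-subunit genes had alike medians in DN4 (0.06 each), and in DN3 these were 0.003 for the 46 large-subunit genes and 0.08 for the 31 small-subunit genes.

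A group of 10 members was higher in KI DN4 and lower in KI DN3 than in WT, past the line of 5 to 4 in each stage. Over all 5287 genes measured in both stages, 0.511% did so, 27 genes in all. The widest was Rps29 (GRCm38 chr12:69157722-69159186), a small zinc-binding protein of the small subunit. It was at 4344 CPM in KI DN4 against 2260 in WT DN4, and at 1143 in KI DN3 against 2401 in WT DN3. Its KI-to-WT log2 ratio came to 0.94 in DN4 (95% interval 0.93 to 0.96) and to −1.07 in DN3 (−1.09 to −1.05). The WT libraries lay near each other, while KI DN4 was the highest and KI DN3 the lowest of the 4.

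Rps28, a small-subunit protein near the site where the mRNA leaves the ribosome, had the same order. It was at 3821 CPM in KI DN4 against 2210 in WT DN4 (log2 ratio 0.79), and at 1470 in KI DN3 against 2836 in WT DN3 (−0.95). Rpl38, a large-subunit protein known in mice for its part in the translation of Hox mRNAs, was at 3372 CPM in KI DN4 against 1985 in WT DN4 (0.76). In DN3 it was at 1305 CPM in KI against 2527 in WT (−0.95). For each of these genes KI DN4 was again highest and KI DN3 lowest.

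Rps21 was at 3661 CPM in KI DN4 against 2549 in WT DN4 (log2 ratio 0.52), and at 1638 in KI DN3 against 2476 in WT DN3 (−0.60). Rpl41, which encodes the shortest of all ribosomal proteins, was at 7136 CPM in KI DN4 against 5624 in WT DN4 (0.34), and at 3434 in KI DN3 against 5329 in WT DN3 (−0.63). The other members with this pattern were Rps27rt, Rpl37, Rpl39, Rpl37a and Rpl36, with ratios of 0.33 to 0.41 in DN4 and −0.80 to −0.38 in DN3. Rps27rt is the retrotransposed copy of Rps27 shown above; it was at 66.2 CPM in KI DN4 against 50.2 in WT DN4 (0.40), and at 36.0 in KI DN3 against 62.6 in WT DN3 (−0.80).

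The reverse pattern, lower in KI DN4 and higher in KI DN3, was held by 3 members (0.53% of all genes). Rpl21 (chr5:146832890-146837032), a large-subunit gene, was at 518 CPM in KI DN4 against 1023 in WT DN4 (log2 ratio −0.98, interval −1.01 to −0.95). In DN3 it was at 1514 CPM in KI against 741 in WT (1.03, interval 1.004 to 1.06). Rps7 (chr12:28630854-28635953), a small-subunit protein that can also bind the p53 regulator Mdm2, was at 1043 CPM in KI DN4 against 1930 in WT DN4 (−0.89), and at 2716 in KI DN3 against 1626 in WT DN3 (0.74). Rpl36al (chr12:69182731-69184083), the paralog of Rpl36a, was at 130 CPM in KI DN4 against 203 in WT DN4 (−0.65), and at 256 in KI DN3 against 149 in WT DN3 (0.78). It lies 23.5 kb from Rps29 on the same strand of chromosome 12. Near-identical copies in the annotation, meaning other genes that match over at least 100 bases at 98% identity or more, numbered 17 for Rpl21, 4 for Rps7 and 2 for Rpl36al. Among the 10 members with the first pattern they numbered 4 for Rps28, 3 each for Rps29, Rpl38 and Rpl36, 2 each for Rps27rt, Rpl39 and Rpl37a, 1 each for Rpl41 and Rpl37, and 0 for Rps21. Where a gene has such copies its count is uncertain, which leaves Rps21 as the only one of these 13 members without this limit.

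**Figure D1:**
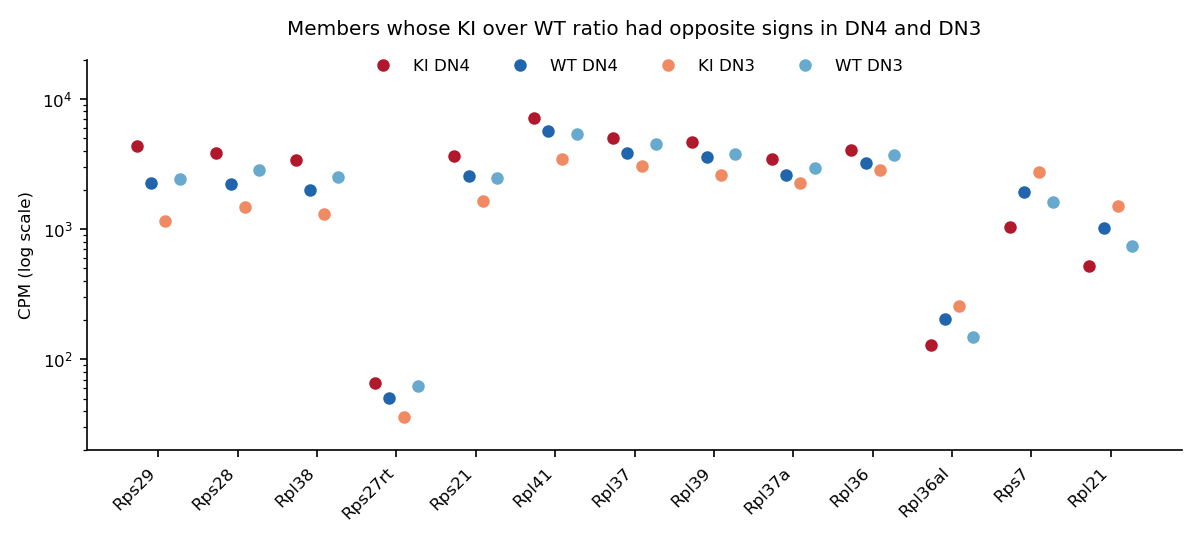
CPM on a log scale (y axis) of the 13 members that were called apart between KI and WT in opposite directions in DN4 and DN3, 1 point per library. For 10 of them KI DN4 is above WT DN4 and KI DN3 below WT DN3, and for Rpl36al, Rps7 and Rpl21 the reverse; each library is a single sample with no replicate.

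Some members were called in 1 stage and not in the other; whether the stages differ for them was not tested. In DN3, Rpl35, a large-subunit protein at the exit of the peptide tunnel, was at 565 CPM in KI against 1281 in WT, the lowest ratio of all members (log2 −1.18, −1.21 to −1.15). In DN4 it was at 1143 CPM in KI against 1361 in WT (−0.25). Rpl36a was at 572 CPM in KI DN3 against 1122 in WT DN3 (−0.97), and at 1075 in KI DN4 against 1033 in WT DN4 (0.06). The highest DN3 ratios after the 3 members above included Rpl14 at 0.25 and Rplp0, the base of the stalk that recruits elongation factors, at 0.23, both short of the call.

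In DN4, Rpl29 was at 512 CPM in KI against 922 in WT (log2 ratio −0.85), and Rpl13a, also known for silencing the translation of inflammatory mRNAs, was at 156 CPM in KI against 280 in WT (−0.84). Rpl10, a large-subunit protein added late in assembly, was at 68.9 CPM in KI against 121 in WT (−0.81), and Rpl9 at 1868 in KI against 2875 in WT (−0.62). In DN3 these genes lay at −0.21 for Rpl29, −0.11 for Rpl13a, −0.52 for Rpl10 and 0.12 for Rpl9. They have between 2 and 9 near-identical copies each. Rpl10 was thus called lower in KI in both stages, and so was Rps27. Rps27 was at 35.2 CPM in KI DN4 against 48.3 in WT DN4 (−0.45) and at 36.5 in KI DN3 against 61.9 in WT DN3 (−0.76).

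Most of the members called in these comparisons had a short coding region. The 83 members were split into groups of near equal size by coding length (GENCODE vM21), a split chosen after their values were seen. Among the 21 shortest, with 75 to 357 coding bases, the median KI-to-WT log2 ratio was 0.29 in DN4 and −0.52 in DN3. In DN4, 10 of the 21 were called higher (4.38% of all genes) and 2 lower (15.3%). In DN3, 1 was higher (4.57% of all genes) and 13 lower (7.75%). Of other genes about as short, 30 of 351 were higher and 43 lower in KI DN4, and 18 of 347 higher and 36 lower in KI DN3. The next 22 members, with 366 to 453 coding bases, had medians of 0.07 in DN4 and 0.05 in DN3. The 20 with 456 to 612 coding bases lay at −0.01 and 0.10, and the 20 longest, with 624 to 1257, at 0.06 and 0.15. Over the 83 members, Spearman's rho between coding length and the ratio was −0.33 in DN4 and 0.62 in DN3, as a description of genes that share libraries.

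**Figure D2:**
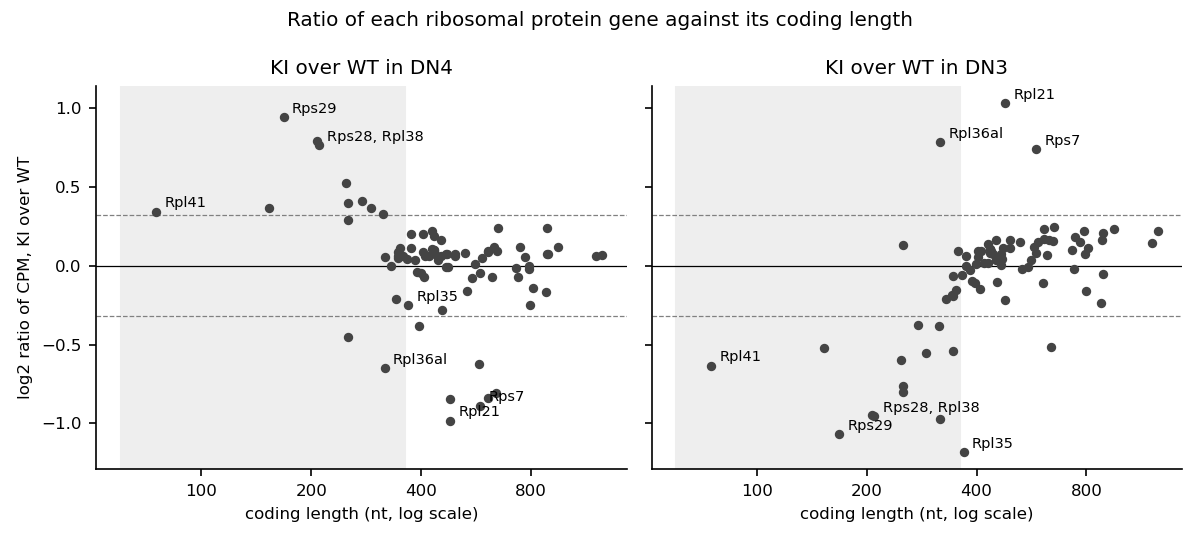
The log2 ratio of CPM, KI over WT (y axis), of each of the 83 members against its coding length in nucleotides on a log scale (x axis), for DN4 (left) and DN3 (right). Dashed lines mark a ratio of 5 to 4 either way and the grey band the 21 shortest members, whose medians are 0.29 in DN4 and −0.52 in DN3.

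Among genes that are not ribosomal protein genes, the ratio in DN4 also fell off with coding length, over a narrower range. Their median KI-to-WT log2 ratio in DN4 was 0.09 for 351 genes with 75 to 357 coding bases, 0.06 for 243 with 366 to 453 and 0.01 for 509 with 456 to 612. It was −0.04 for 1855 genes with 624 to 1257 coding bases and −0.09 for 2460 that were longer than every member, and rho was −0.15. In DN3 the shortest 347 other genes had a median of 0.04 and the longest 2582 −0.02, with a rho of −0.09, the sign opposite to that of the members. By the length of the whole transcript, the 7 members of up to 400 bases had a median of 0.52 in DN4 and the 36 other genes of that length −0.18. Above 400 and up to 500 bases the DN4 medians were 0.06 for 9 members and 0.13 for 52 other genes, and above 500 and up to 600 bases 0.07 for 12 members and 0.16 for 61 other genes. Above 1000 bases they were 0.06 for 20 members and −0.06 for 4902 other genes. Transcript length was that of a single annotated transcript per gene, which need not be the form measured. Rps15a was given 5130 bases with 390 coding, and Rps20 3706 with 357, so which members lie above 1000 bases is uncertain. In DN3, transcripts of up to 400 bases had medians of −0.80 for the 7 members and −0.45 for 31 other genes, and those above 400 and up to 500 bases −0.11 for 9 members and −0.16 for 51 other genes. Above 1000 bases the DN3 medians were 0.10 for 20 members and −0.004 for 5104 other genes. The part of transcript length, of library preparation and of near-identical copies in these ratios was not tested.

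The 21 shortest members together made up 25.2% of all member UMIs in KI DN4 and 22.0% in WT DN4, and 17.4% in KI DN3 against 22.5% in WT DN3. Over single cells, the median of this share was 25.4% in KI DN4 and 22.3% in WT DN4, and 17.3% in KI DN3 against 22.4% in WT DN3. Over all DN3 cells the 95th percentile of KI (19.1%) lay below the 5th of WT (19.7%). Over all DN4 cells the 5th percentile of KI (23.5%) lay below the 95th of WT (25.8%). Within DN4 it lay above in clusters 3 (23.5 against 23.0%) and 4 (23.4 against 22.7%). It lay below in clusters 2 (23.4 against 24.9%) and 5 (24.1 against 26.8%). The cells of a group share a library, so these percentiles do not test a difference between stages.

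**Figure D3:**
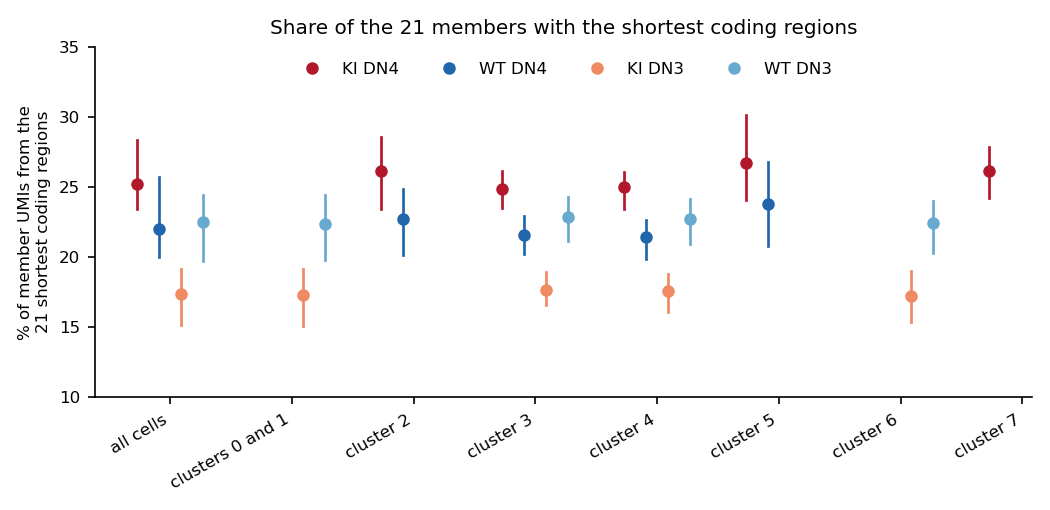
Share of member UMIs that came from the 21 members with the shortest coding regions (y axis, %), over all cells and within each deposited cluster with at least 50 cells in the library. Points are sums over cells and lines run from the 5th to the 95th percentile of single cells; in every cluster that has both genotypes KI DN4 lies above WT DN4 and KI DN3 below WT DN3.

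To separate shifts common to a library from shifts of a kind of cell, the ratios were recomputed within the authors' deposited clusters. Clusters 0 and 1 held nearly only DN3 cells, 2415 KI and 109 WT in cluster 0 and 54 KI and 2146 WT in cluster 1, and were summed because they divide the genotypes. Their markers of DN3 cells before selection summed to 2243 and 2269 CPM. Cycling markers summed to 907 CPM in cluster 3 and 3192 in cluster 4, which held cells of both stages, and cluster 6 was a DN3 cluster. Cluster 2, nearly all DN4, had the most γδ markers (1888 CPM), and cluster 5, all DN4, had the most NK-related markers (1269 CPM). The share of short members differed little between these clusters within a DN3 library, and more within a DN4 library. The share was 24.9 to 26.7% across the clusters of KI DN4 and 21.4 to 23.8% across those of WT DN4. It was 17.2 to 17.7% in KI DN3 and 22.4 to 22.9% in WT DN3.

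Within clusters 2, 3, 4 and 5 of DN4, 8 members were called higher in KI in every cluster (0.739% of all 5551 genes), and 7 were lower in every cluster (2.23%). Within clusters 0 and 1, 3, 4 and 6 of DN3, 3 were higher in every cluster (1.02% of all 5793 genes) and 13 lower (2.18%). Rps29 had log2 ratios of 0.88 to 1.0 across the DN4 clusters and −1.15 to −1.03 across the DN3 clusters. Rpl21 had −1.09 to −0.92 in DN4 and 0.96 to 1.11 in DN3, and Rps7 −0.91 to −0.79 and 0.71 to 0.82. A member was taken as cluster-specific when 1 cluster lay at least 0.5 on the log2 scale from the median of the others, with an interval that overlapped none of theirs. No member met this in DN4 (1.75% of all genes did) or in DN3 (0.846%).

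The spread between members was several times the spread between clusters. In DN4 the SD of the members' common shift, the median over clusters, was 0.332 over 83 members, and the median SD of a member over its clusters was 0.0437, beside 0.170 for all genes. In DN3 these were 0.369 and 0.0568, beside 0.150 for all genes. The SD over clusters includes counting error, which is larger for genes with fewer UMIs. Most members lay far above the 20 CPM at which genes entered, so their SD cannot be set directly against that of all genes. Across the 83 members, Pearson's r between the ratios of any pair of clusters was 0.958 to 0.986 in DN4 and 0.947 to 0.983 in DN3. This is a description, since the clusters of a library share its preparation and depth.

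With clusters 0 and 1 kept apart, 8 members were lower in every DN3 cluster (1.18% of all 5746 genes). A cluster apart was found for 2 (1.01% of all genes), Rpl36a and Rps18, both through cluster 0, with its 109 WT cells. Rpl36a was at 571 CPM in KI and 767 in WT in that cluster (log2 ratio −0.43, against a median of −1.05 in the others), and Rps18 at 1646 in KI and 1264 in WT (0.38, against −0.15).

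**Figure D4:**
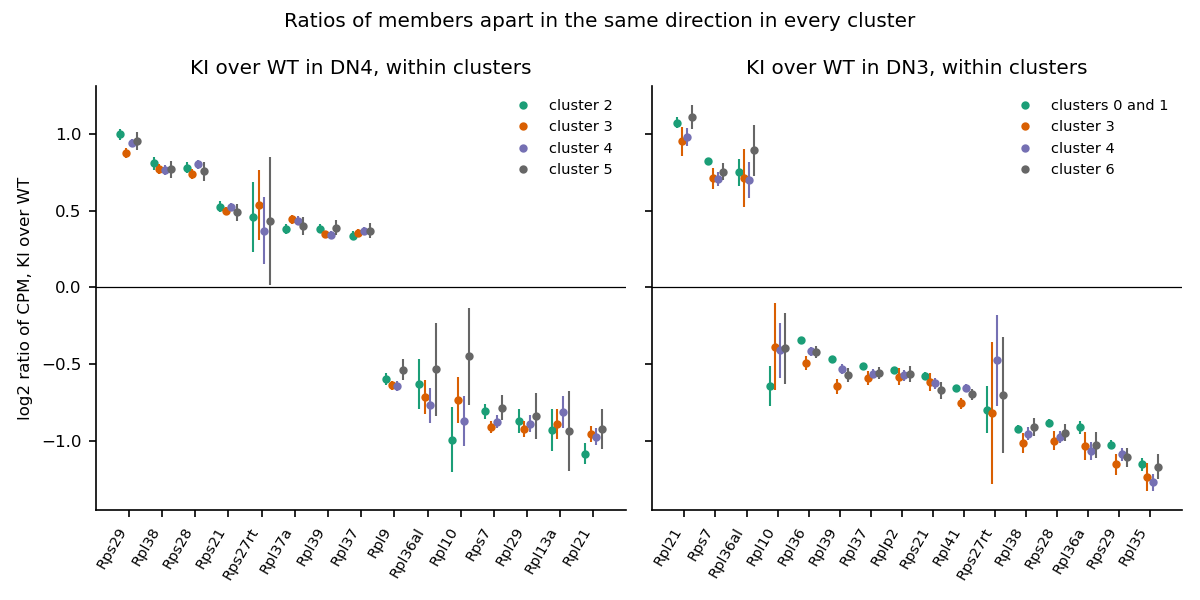
The log2 ratio of CPM, KI over WT (y axis), within each cluster for the members that were called in the same direction in every cluster, 15 in DN4 (left) and 16 in DN3 (right). Points are ratios of sums over cells and lines 95% intervals of counting error; for Rps29 the 4 DN4 clusters lie between 0.88 and 1.0 and the 4 DN3 clusters between −1.15 and −1.03.

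Between stages, fewer members lay apart in WT than in KI mice, and this difference between genotypes has no test. For DN4 over DN3 in KI, 19 of 83 members were called higher (14.7% of all 5822 genes) and 5 lower (26.3%), and 6 were 2-fold higher (2.68%) and 2 lower (5.05%). With TMM factors the KI counts were 27 higher (22.7% of all genes) and 4 lower (18.8%). The excess of higher over lower members in KI was not there among cells with 4000 to 8000 UMIs, where 15 were higher (25.1% of all genes) and 20 lower (31.7%), or in phase G1, where 15 were higher (24.8%) and 15 lower (30.2%), and by the mean of per-cell CPM 16 were higher (20.98%) and 9 lower (26.0%). In WT, 8 were higher (16.8% of all 5987 genes) and 4 lower (22.6%), with none past 2-fold (3.82% of all genes were 2-fold higher and 4.41% lower). Among WT cells with 4000 to 8000 UMIs, 7 were higher (28.9%) and 11 lower (28.2%). The medians of the members were −0.01 in KI and 0.03 in WT, beside −0.07 and −0.03 for all genes. These comparisons use the same 4 libraries as those between genotypes and are not independent of them.

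In KI, the highest ratios of DN4 over DN3 belonged to Rps29 (log2 1.93), Rps28 (1.38), Rpl38 (1.37), Rps21 (1.16), Rpl41 (1.06) and Rpl35 (1.02). The lowest were those of Rpl21 (−1.55), Rps7 (−1.38), Rpl36al (−0.98) and Rpl9 (−0.64). In WT the same genes lay between −0.36 and 0.47, with Rps29 at −0.09, Rps28 at −0.36 and Rpl38 at −0.35, and with Rpl21 at 0.47 and Rps7 at 0.25. The highest in WT was Rpl29, at 922 CPM in DN4 against 660 in DN3 (0.48), followed by Rpl21, Rpl36al (0.45), Rpl13a (0.43) and Rplp1, an acidic protein of the stalk (0.36). Within clusters 3 and 4, the pair with enough cells in all libraries, 15 members were higher in both clusters in KI (4.1% of all genes) and 4 lower (7.54%). In WT 5 were higher (3.28%) and none lower (5.31%), and no member was cluster-specific in either genotype (1.93% of all genes in KI and 1.88% in WT).

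The members called between stages in the same direction in both genotypes were Rpl22 and Rplp1, higher in DN4, and Rps24, lower. Of all genes, 14.7% in KI and 16.8% in WT were called higher in DN4, and 26.3% and 22.6% lower. The share of all genes called in both genotypes was not computed, so whether these members are few or many cannot be said. Rps24, a small-subunit protein whose human gene is mutated in Diamond-Blackfan anaemia, was at 6591 CPM in KI DN4 against 8686 in KI DN3 (log2 ratio −0.40), and at 6816 in WT DN4 against 8631 in WT DN3 (−0.34). Rps14 (−0.30 in KI and −0.30 in WT) and Rps19 (−0.29 and −0.29) lay just short of the call. Rpl22, the protein required by αβ thymocytes in mice, was at 2578 CPM in KI DN4 against 1960 in KI DN3 (0.40), and at 2511 in WT DN4 against 1993 in WT DN3 (0.33). Its paralog Rpl22l1, whose mRNA Rpl22 represses, was at 964 CPM in KI DN4 against 1025 in KI DN3 and at 935 in WT DN4 against 1069 in WT DN3, short of the call. Rplp1 was at 2587 CPM in KI DN4 against 2049 in KI DN3, and at 2989 in WT DN4 against 2334 in WT DN3.

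For Rps24 the difference between stages was far smaller within a cluster. In cluster 3 it was at 6231 CPM in KI DN4 against 6307 in KI DN3, and at 6342 in WT DN4 against 6448 in WT DN3. In cluster 4 it was at 5853 in KI DN4 against 6224 in KI DN3, and at 5986 in WT DN4 against 6157 in WT DN3. The stages differ in which clusters they hold. Rps24 stood at 10709 CPM in KI and 10085 in WT in clusters 0 and 1 of DN3, and at 8824 in KI and 8305 in WT in cluster 5 of DN4. For Rpl22 part of the difference was there within clusters, with log2 ratios of 0.28 and 0.33 in clusters 3 and 4 of KI and 0.12 and 0.22 in those of WT.

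Across clusters within a library, the members named below with the widest ranges were not those called in opposite directions in DN4 and DN3. They varied in both KI and WT cells. How the clusters were made is not given in the sources used here and these genes may have entered them, so what follows is a description. Rps27l, a paralog of Rps27 that p53 induces, ranged most, by a median of 1.61 on the log2 scale over the 4 libraries. In DN4 it was at 589 CPM in KI and 524 in WT in cluster 3, and at 160 in KI and 134 in WT in cluster 2. In DN3 it was at 549 in KI and 561 in WT in cluster 3, and at 236 in KI and 225 in WT in clusters 0 and 1. Wide ranges were also those of Rpl7l1 (0.97), Rpl14 (0.94) and Rpl27 (0.92), all of them highest in cluster 3. Rpl14 was at 3628 CPM in KI and 3273 in WT in cluster 3 of DN4, and at 1963 in KI and 1661 in WT in cluster 2. Rps29, the widest of the 10 members that were higher in KI DN4 and lower in KI DN3, had the narrowest range between clusters of the 83 members, 0.18. The other members called in opposite directions in DN4 and DN3 ranged more, up to 0.63 for Rps27rt, 0.60 for Rps7 and 0.53 for Rpl36al.

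**Figure D5:**
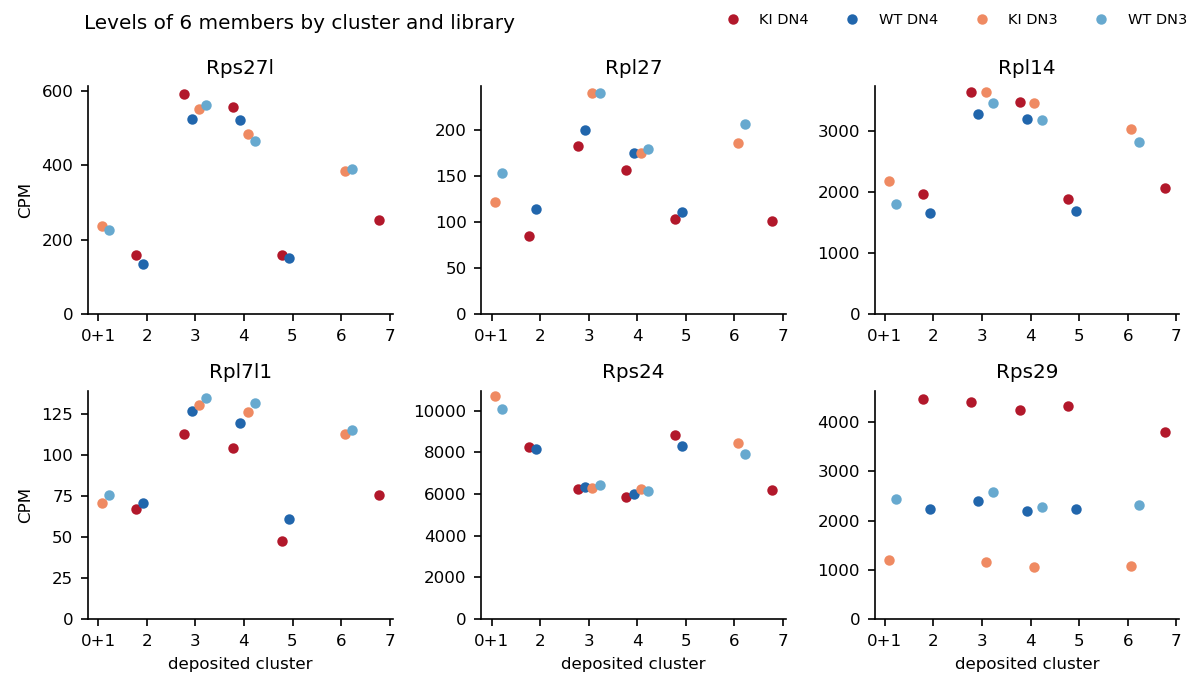
CPM (y axis, from 0) of 6 members by deposited cluster (x axis, 0+1 being clusters 0 and 1 summed) and library, for clusters with at least 50 cells in the library. Rps27l, Rpl27, Rpl14 and Rpl7l1 are highest in cluster 3 in each library, Rps24 is lowest in cluster 4, and Rps29 differs little between the clusters of a library.

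Cycling cells of cluster 3, set against the cells of cluster 2 in DN4, had 27 of 83 members called higher in both genotypes (30.1% of all 6088 genes were) and 2 lower in both (36.9%). Against clusters 0 and 1 in DN3 they had 19 higher (26.1% of all 6075 genes) and 3 lower (38.4%). The counts of higher members were thus near the share of all genes. Besides the genes above, Rps2 (log2 ratio 0.92 in KI and 0.98 in WT DN4), Rps25 (0.82 and 0.86), Rpl4 (0.71 and 0.76) and Rps6, the target of the S6 kinases (0.74 and 0.69), were higher in cluster 3 than in cluster 2. In DN3, against clusters 0 and 1, Rps2 was at 0.51 in KI and 0.58 in WT, Rps25 at 0.85 and 0.89, Rpl4 at 0.76 and 0.88, and Rps6 at 0.64 and 0.68. Rps24 and Rps27rt were lower in both stages, Rps24 at −0.40 in KI and −0.36 in WT in DN4 and at −0.76 in KI and −0.65 in WT in DN3. Over the 83 members, the ratios of cluster 3 over cluster 2 in KI and WT DN4 had a Pearson's r of 0.975, and those of cluster 3 over clusters 0 and 1 in DN3 0.962. The cells of cluster 3 had far more UMIs, with a median of 18095 in KI and 18637 in WT DN4 against 4297.5 and 5252 in cluster 2, and the part of depth was not tested.

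The members with the most UMIs were Rplp0, Rps24, Rpl13, Rpsa and Rps3a1. Rplp0 was at 8093 CPM in KI DN4 against 7436 in WT DN4, and at 8628 in KI DN3 against 7347 in WT DN3. The large-subunit pair Rpl5 and Rpl11, which bind Mdm2 when ribosome assembly is disturbed, were not called in any comparison. Rpl5 was at 1759 CPM in KI DN4 against 1669 in WT DN4 and at 1735 in KI DN3 against 1500 in WT DN3. Rpl11 was at 3678 in KI DN4 against 4106 in WT DN4 and at 4033 in KI DN3 against 4100 in WT DN3. Rps19bp1, the match that is not a ribosomal protein, was at 62.4 CPM in KI DN4 against 53.5 in WT DN4 and at 51.7 in KI DN3 against 51.0 in WT DN3.

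Among the paralogs, those of muscle and germ cells were nearly absent. Rpl3l, the form of Rpl3 in striated muscle, was at 0.132 CPM in KI DN4 and 0.183 in WT DN4, from 4 and 3 UMIs, and at 3.53 in KI DN3 and 3.05 in WT DN3, from 90 and 69 UMIs. Rpl39l and Rpl10l, both forms of the testis, had 54 and 3 UMIs over all libraries. These 3 were below 20 CPM throughout and were not compared. Rpl7l1 was at 98.2 CPM in KI DN4 against 103 in WT DN4 and at 97.3 in KI DN3 against 98.8 in WT DN3, and Rps27l at 475 in KI DN4 against 389 in WT DN4 and at 356 in KI DN3 against 326 in WT DN3. For Rps27l the ratio of DN4 over DN3 in KI was 0.41, but it was −0.73 among cells in phase G1 and −0.77 among cells with 4000 to 8000 UMIs.

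Of the measured genes listed as working beside the ribosomal proteins, none was called in opposite directions in DN4 and DN3. Over all genes 0.511% and 0.53% were, by direction, so finding none in such short lists is near that share. Of all genes, 4.38% were called higher and 15.3% lower in KI DN4. In KI DN3 4.57% were called higher and 7.75% lower. Fau, which encodes a ribosomal protein fused to a ubiquitin-like sequence, and Rack1, a scaffold on the small subunit, were not called in any comparison. Fau was at 5009 CPM in KI DN4 against 4873 in WT DN4 and at 4617 in KI DN3 against 4651 in WT DN3. Of 22 measured TOP mRNAs of translation and related factors, none was higher and 2 were lower in KI in DN4 (median log2 ratio 0.01), and none was higher and 2 lower in DN3 (0.13). The 2 lower in DN4 were Eif4a2 (−0.65), an RNA helicase gene, and Pabpc1 (−0.57), the gene of the poly(A)-binding protein. Of the ribosome assembly genes, 1 of 38 measured was higher in KI DN4 and none lower (median 0.08), and 1 of 36 was higher in KI DN3 and none lower (0.03). The genes higher in KI were Pdcd11, at 33.7 CPM in KI DN4 against 20.5 in WT DN4 (0.72), and Heatr1, at 25.3 in KI DN3 against 19.6 in WT DN3 (0.37). Of the S6 kinase and mTOR pathway genes, Larp1 was the lowest in DN4, at 30.6 CPM in KI against 39.4 in WT (−0.36), the only one of 8 measured that was called. In DN3, Eif4ebp1 was the only one of 10 called, at 25.7 CPM in KI against 20.1 in WT (0.35).

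In cluster 8 the members were low. This cluster held 88 cells from all 4 libraries, and members made up 4.33% of UMIs in KI DN4, 4.83% in WT DN4, 7.82% in KI DN3 and 6.27% in WT DN3. Over all cells, 114 of 10237 had under 10% of UMIs from members, and 84 of these were in cluster 8 and 19 in cluster 4. Of the 83 members 80 were at least 2-fold lower in cluster 8 than in the other cells, as were 1048 of all 5527 genes measured there, and the median log2 ratio was −2.26 for the members and 0.37 for all genes. Rpl35 was among the lowest, at 96.6 CPM in cluster 8 and 1060 elsewhere, while Rps27 was at 51.5 and 44.2. The cluster held 155279 UMIs in all, so these values rest on few counts, and reads of Rps27 may be hard to assign. The cells had a median of 1664.5 UMIs. Malat1, a nuclear RNA, was at 23203 CPM in cluster 8 and 2549 elsewhere, and the median share of mitochondrial UMIs was 6.01%. The part of RNA quality in these values was not tested, and leaving cluster 8 out changed none of the counts of members given above for whole libraries by more than 1.5 times.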

How the data were processed

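What the authors deposited were UMI counts, not normalised, for 15653 genes in 10237 cells, with a second table naming the library, cluster and phase of every cell; how clusters and phases were made is not given in the sources used here. The submitters' processing notes name Cell Ranger 3.1.0 and 6.0.1 and build mm10. No cell was removed. Counts were summed per library, or per library and cluster, and scaled to CPM. A gene entered a comparison at 20 CPM or more in either of its libraries, and each ratio of CPM has an exact Poisson (conditional binomial) 95% interval for counting error only. With 1 library per group, fold lines of 1.25 and 2 stand in for a test; no additive fit over the 4 libraries was made. Cluster splits used clusters with at least 50 cells in both libraries. Of the 8 samples of the series, 4 are T cell receptor libraries and were not used here. The members and all gene lists were chosen with earlier results of these data known. Named were the 6 highest and 6 lowest ratios per comparison, the 5 members with most UMIs, the 5 widest between clusters, paralogs with their parents, Rpl5, Rpl11, Rpl22 and opposite members; Rpl39, Rpl37 and others past a line were named after their values were seen. Some genes that this rule selects are not reported here.

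Positions, coding lengths and transcript lengths came from GENCODE vM21 (GRCm38), matched by symbol, and start-site sequences from RefSeq (GRCm38.p6). Lengths were those of a single transcript per gene, ranked by annotation tags and support level, with ties going to the shorter. Copies were found with BLAST 2.17.0. Scrublet in scanpy 1.11.5 called 44 KI DN4, 20 WT DN4, 5 KI DN3 and 4 WT DN3 doublets, 73 of 10237 cells (0.713%), which were left in; the DN3 rates lie below 0.5%, so the caller cannot be relied on there. Python 3.11.15, scipy 1.17.1, R 4.3.3 and edgeR 4.0.16 (TMM factors only) were used. Calculations were tested on simulated data.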

Additional observations from a re-analysis of the deposited data

Results flagged for a closer look

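In 13 of 83 members the log2 ratio of KI over WT had opposite signs in DN4 and DN3 and passed a ratio of 5 to 4 in each stage. With 1 library per group the difference between stages was not tested. Given as the ratio in DN4 minus that in DN3, it was 2.01 for Rps29, 1.74 for Rps28, 1.72 for Rpl38, 1.20 for Rps27rt, 1.12 for Rps21 and 0.98 for Rpl41. It was 0.92 for Rpl37, 0.89 for Rpl39, 0.79 for Rpl37a and 0.71 for Rpl36. For the 3 members with the reverse order it was −2.01 for Rpl21, −1.63 for Rps7 and −1.43 for Rpl36al.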

How the results depend on the processing

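For the 13 opposite members, the sign of KI over WT was the same under all 14 settings in both stages, although Rpl36 reached only 0.27 in DN4 and −0.30 in DN3 at its smallest, Rpl37a −0.28 in DN3 and Rpl41 0.32 in DN4. Scaling by TMM factors moved the median of all genes for KI over WT in DN4 to 0.07, where library totals gave −0.05, and then 14 members were higher (11.4% of all genes) and 8 lower (8.35%); for DN4 over DN3 in KI the median went to 0.06, with 27 members higher (22.7%) and 4 lower (18.8%). In what follows the share of all genes called in the same direction under the same setting is in parentheses. Among cells with 4000 to 8000 UMIs, 7 members were higher in KI DN3 (5.12%), and DN4 over DN3 had 20 lower in KI (31.7%) and 11 lower in WT (28.2%). For DN4 over DN3 in KI, 15 were lower in phase G1 (30.2%) and 9 lower by the mean of per-cell CPM (26.0%). For DN4 over DN3 in WT, 5 were higher in G1 (27.0%), 1 was lower in S (14.1%) and 2 in G2M (15.4%), 5 were higher (5.04%) and 0 lower (9.74%) in clusters 3 and 4, and 16 were higher without clusters 2, 5 and 7 (20.95%). With clusters 0 and 1 apart, 8 members were lower in every DN3 cluster (1.18%) and 2 had a cluster apart (1.01%). Rps27 changed sign for DN4 over DN3 in WT, to 0.027 at 4000 to 8000 UMIs, and Rps27l for DN4 over DN3 in KI, to −0.77 at 4000 to 8000 UMIs and −0.73 in G1. The cause of these moves was not tested. Leaving out cluster 8 was chosen after seeing the data. A minimum of 100 cells leaves cluster 4 alone for DN4 over DN3 in WT, with 5 members higher (5.89%) and 0 lower (14.6%), so no clusters could be compared there. No paired analysis was possible because each group has 1 library and the labels carry no replicate numbers. Rps27 and Rps27rt rest on few counts, 792 to 2012 UMIs per library.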
